A study of Mus musculus with 30 samples.

Results

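The livers of 2 inbred mouse strains were set against the livers of their F1 offspring, gene by gene, to separate how far a strain difference travels with the allele and how far it does not. Genes were taken where they lie on an autosome, exceed 0.5 CPM (counts scaled to library size) in at least 15 of 29 mice, and carry the inbred's own allele in no less than 90% of allele-assigned counts, for every inbred. These conditions held for 4052 of the 42880 genes in the files, out of 13185 expressed genes and 12779 expressed autosomal genes, and 3907 of the 4052 were protein coding. Strains of the Collaborative Cross descend from shared founder strains, so many genes hold no transcribed variant that tells CC019 from CC037. *Dedd*, *Zfp704* and *Uba7* lay just inside the allele condition, with lowest own-allele shares of 90.004, 90.02 and 90.042%. *Entpd2*, *Mdm1* and *Slc13a5* lay just outside it, at 89.997, 89.994 and 89.976%.

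The mice were 6 CC019/TauUnc inbreds (3 males and 3 females), 9 CC037/TauUnc inbreds (4 males and 5 females), 6 F1s of CC019 mothers and CC037 fathers (CC019xCC037, 3 males and 3 females) and 8 F1s of CC037 mothers and CC019 fathers (CC037xCC019, 3 males and 5 females). Each was 4 months old, and 1 library of messenger RNA from its median liver lobe is used here. Depth ran from 27672008 to 63258035 counts, with a median of 37888559, and 32.6 to 37.7% of them fell on the 4052 genes. Over these genes, 98.9 to 99.4% of an inbred's counts were on its own allele, and 49.0 to 49.5% of an F1's counts were on the CC019 allele.

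A *cis* difference is carried by the copy of the gene itself, for example in its promoter or its chromatin, and therefore persists between the alleles of an F1, where both copies meet the same proteins. A *trans* difference comes from something that reaches both copies, such as a transcription factor, a hormone or a metabolite, and disappears between the alleles of an F1. In liver, genes of drug metabolism are well known for variation near the gene, and genes of fat and sugar synthesis are known for control by insulin, feeding and time of day.

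Positive values stand for CC019 throughout. The strain difference is the log2 ratio of total expression in CC019 over CC037 inbreds. The allelic ratio, taken as the *cis* part, is the log2 ratio of the CC019 over the CC037 allele within F1s. The *trans* part is the strain difference minus the allelic ratio, and it was tested directly. Its joint test fits a shared error scale per gene over inbreds and F1 alleles. Where inbreds vary widely, the standard error of the *trans* part can therefore be too small and its adjusted p too low. For *Slc3a1* and *Scd1* below, that standard error is smaller than the one of the strain difference. A gene was counted as called at an adjusted p of at most 0.05 in edgeR's quasi-likelihood test with Benjamini-Hochberg adjustment. The inbred libraries used here formed 1 sequencing batch and the F1 libraries another, so batch and cross type cannot be told apart in these *trans* parts. The study ran 6 inbreds in both batches to look for an effect of batch. From how these libraries clustered, the paper proposes a batch effect below the differences between strains. Those repeat libraries were not analysed here, and an effect of batch was not tested.

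Strain differences were called in 1251 genes (30.9%), against 3157 of all 13185 expressed genes (23.9%), with CC019 higher in 649 (16.0%) and CC037 higher in 602 (14.9%). Allelic imbalance was called in 1952 genes (48.2%), with the CC019 allele higher in 993 (24.5%) and the CC037 allele higher in 959 (23.7%). A *trans* part was called in 512 genes (12.6%), above 0 in 250 (6.17%) and below 0 in 262 (6.47%). In these bulk samples, fewer cells of a type and less RNA per cell cannot be told apart. Of the 1251 strain differences, 65.8% came with an allelic call of the same sign and 24.1% (302 genes) with a *trans* call.

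Combined, the 3 calls gave 701 genes that differed between strains and alleles in the same direction with no *trans* call (*cis* only, 17.3%) and 128 that differed between strains with a *trans* call and no allelic call (*trans* only, 3.16%). In 96 genes both parts were called with the same sign (same direction, 2.37%). In 78 they were called with opposite signs and a strain difference was left over (opposing, 1.92%). Another 190 had both parts called and no strain call (compensatory, 4.69%). The remaining genes were 1704 with no call and 1155 with another combination, among them 887 with an allelic call alone and 248 with a strain call alone. A class that needs a test to miss depends on precision. Of the *cis* only genes, 426 (60.8%) had a 95% interval of the *trans* part inside 0.5 on either side of 0, and of the *trans* only genes, 113 had such an interval of the allelic ratio. The count of 426 rests on *trans* standard errors, which can be too small.

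Across the 4052 genes, which are not independent replicates, the strain difference and the allelic ratio had a Pearson's r of 0.715 (Spearman's rho 0.564) with no mouse in common. The r was 0.607 without the 110 genes beyond 2 on either scale. The median absolute value was 0.23 for the strain difference, 0.19 for the allelic ratio and 0.20 for the *trans* part, with median standard errors of 0.12, 0.07 and 0.16. Error therefore fills more of the *trans* part than of the *cis* part. Covariances between females and males, which share no mouse, were 0.323 for the *cis* part and 0.106 for the *trans* part, so that *cis* made up 75.3% of their sum (71.5% without the 110 genes). Such covariances keep only what both sexes share. A *cis* or *trans* part that differs between the sexes is left out of this share. The allelic ratio exceeded the *trans* part in 46.7, 46.7, 52.7, 62.5 and 70.5% of genes with an absolute strain difference of 0 to 0.25, 0.25 to 0.5, 0.5 to 1, 1 to 2 and beyond 2. Because the strain difference is the sum of both parts, these groups are not independent of them.

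**Figure D1:**
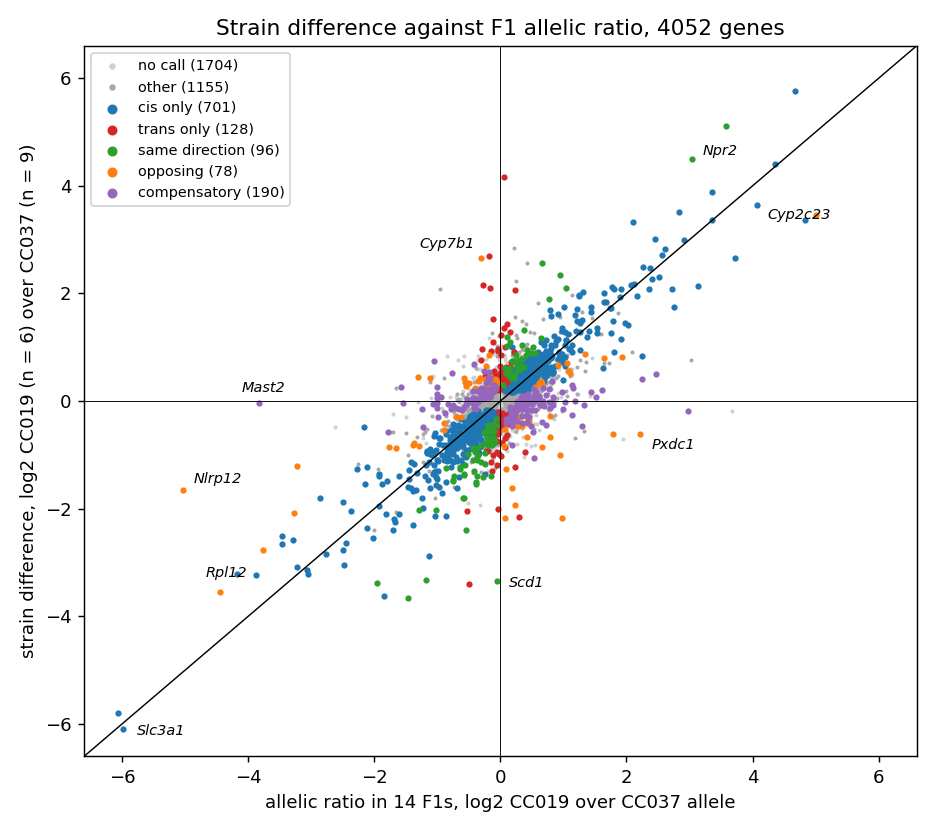
Strain log2 difference in inbreds (CC019 over CC037, total expression) against allelic log2 ratio in F1s (CC019 over CC037 allele) for the 4052 genes, each point 1 gene, coloured by class. Genes of the *cis* only class lie along the diagonal, *trans* only genes along the line of no allelic ratio, and compensatory genes along the line of no strain difference.

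Among *cis* only genes with a mean of at least 5 CPM, the widest allelic ratios were in a kidney and liver amino acid transporter subunit, a cytochrome P450 and an antigen-presenting molecule. *Slc3a1* (ENSMUSG00000024131, GRCm38 chromosome 17 from 85028376 to 85064236), which pairs with a light chain to carry cystine and basic amino acids, was at 1.02, 1.43 and 2.86 CPM (lowest, median, highest) in CC019 inbreds and at 60.8, 100 and 279 CPM in CC037 inbreds. In F1s its CC019 allele was at 0.354, 0.717 and 1.26 CPM and its CC037 allele at 34.8, 49.0 and 61.9 CPM. Neither the strains nor the alleles overlapped, and the CC037 allele was higher in 14 of 14 F1s. The strain difference was −6.10 (standard error 0.44, adjusted p = 5.3e-08) and the allelic ratio −5.99 (standard error 0.09, adjusted p = 1.6e-17, both from edgeR's quasi-likelihood test), and the *trans* part was −0.11 (standard error 0.34). In males alone that part was 0.97 (adjusted p = 0.048).

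*Cyp2c23* (ENSMUSG00000025197, chromosome 19 from 44005022 to 44029208), an epoxygenase of arachidonic acid, went the other way. It was at 294, 357 and 635 CPM in CC019 and at 22.7, 34.7 and 38.8 CPM in CC037, and its alleles in F1s had medians of 179 CPM for CC019 and 10.1 CPM for CC037. No CC037 inbred or CC037 allele reached the CC019 range. Its strain difference was 3.65, its allelic ratio 4.07 and its *trans* part −0.41 (standard error 0.21, adjusted p = 0.219 in edgeR's quasi-likelihood test). *H2-Eb1* (ENSMUSG00000060586), a class II antigen-presenting chain, had a strain difference of −5.79 and an allelic ratio of −6.07, from 0.359 CPM in CC019 and 26.9 CPM in CC037 at the median. Both genes belong to families of similar genes, whose reads can be divided in error.

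Allelic calls were frequent among drug-metabolizing enzymes, as in other lists such as amino acid breakdown (22 of 25). Over all members they were more frequent at higher levels, at 36.0, 46.0 and 62.5% from the lowest to the highest group by level. Of 14 measurable cytochrome P450 genes, 11 had an allelic call, 7 a strain call and 3 a *trans* call, and of 8 conjugating enzymes the counts were 8, 6 and 1, against 48.2, 30.9 and 12.6% of all members. In males alone, a *trans* call was made in 7 of the 14 and 5 of the 8 (24.1% of all members), and in females alone in 3 and 2 (8.44%). Leaving out 1 mouse moved the 1 call of conjugating enzymes to between 0 and 2. *Cyp3a13*, a drug-oxidizing P450, had a CC019 median of 178 CPM against 32.6 CPM for CC037. It gave a strain difference of 2.48, an allelic ratio of 2.37 and a *trans* part of 0.11 (standard error 0.14). The thiopurine methyltransferase *Tpmt* had 1.66, 1.44 and 0.22, and the glutathione transferase *Gstk1* 0.88, 0.97 and −0.08. In each of these 3 genes the strains did not overlap and the CC019 allele was higher in 14 of 14 F1s. The *trans* part of *Tpmt* passed in males alone, at 0.30 (adjusted p = 0.031, edgeR's quasi-likelihood test). *Cyp4a14*, a fatty acid hydroxylase, shows what a missing *trans* call can hide. Its *trans* part of 0.02 had a standard error of 1.52, and it was 2.18 in females and −4.75 in males. CC019 females were at 350 to 1142 CPM, CC019 males at 46.1 to 105 CPM, CC037 females at 4.07 to 68.3 CPM and CC037 males at 31.4 to 41.4 CPM.

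Other *cis* only genes span many liver functions. *Sh3bp2*, an adaptor of immune receptor signalling, had a strain difference of 3.0 and an allelic ratio of 2.91. *Dio1*, the deiodinase that activates thyroid hormone, had 1.74 and 2.76, with a *trans* part of −1.02 (standard error 0.59) that did not pass. *Hc*, which encodes complement factor C5, had a CC019 median of 253 CPM against 840 CPM for CC037, giving a strain difference of −1.55 and an allelic ratio of −1.88. Its *trans* part was 0.33 over both sexes and passed in males alone, at 0.61 (adjusted p = 0.0039, edgeR's quasi-likelihood test). *Haao*, an enzyme of tryptophan breakdown, had −0.89 and −0.78. The peptide transporter of antigen loading *Tap2* had 0.80 and 0.81, and its *trans* part of −0.01 had a standard error of 0.09.

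Several enzymes that make fatty acids were lower in CC019 livers while their alleles differed little. Of 27 genes listed for fatty acid synthesis, 14 could be measured by allele. An allelic ratio was called in 11 of them and a *trans* part in 9, below 0 in 8 (48.2, 12.6 and 6.47% of all members), and the median *trans* part of the 14 was −0.59, against −0.00 over the 4052 genes. *Scd1* (ENSMUSG00000037071, chromosome 19 from 44394455 to 44407879), the stearoyl-CoA desaturase that makes monounsaturated fat, was at 95.7, 1098 and 3148 CPM in CC019 and at 7487, 13363 and 21727 CPM in CC037. Its alleles were close in F1s, at 589, 2228 and 4336 CPM for CC019 and 585, 2367 and 4877 CPM for CC037. The strains did not overlap, CC019 males were lowest (95.7 to 550 CPM), and the alleles overlapped over almost their whole range. The strain difference was −3.35 (standard error 0.68, adjusted p = 0.002), the allelic ratio −0.06 (adjusted p = 0.03) and the *trans* part −3.29 (standard error 0.51, adjusted p = 3.4e-05, all by edgeR's quasi-likelihood test). The *trans* part contains the error of the strain difference, so its standard error and adjusted p are likely too low. The allelic call was lost without any of 5 F1s. Only 91.1% of its counts in CC019 inbreds were on the own allele, and after correction for this share the allelic ratio was 0.17.

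*Fasn* (ENSMUSG00000025153), the fatty acid synthase, was at 200, 492 and 681 CPM in CC019 and 943, 1627 and 3210 CPM in CC037, while its alleles had medians of 828 and 815 CPM. Every CC019 inbred was below every CC037 inbred. Its *trans* part was −2.26 (standard error 0.26, adjusted p = 3.7e-07, edgeR's quasi-likelihood test) and its allelic ratio 0.08. *Acaca*, the acetyl-CoA carboxylase that makes malonyl-CoA for it, had a *trans* part of −1.36 and an allelic ratio of 0.09. The elongase *Elovl5* had −1.03 and −0.37. Smaller *trans* parts were called for the transcription factors *Srebf1* (−0.66) and *Mlxipl* (−0.32), which drive lipid and sugar-responsive synthesis genes, and for the desaturase *Fads1* (−0.53). *Lpin2*, a phosphatidate phosphatase, was the called gene above 0, at 0.33. *Scd2*, a close copy of *Scd1*, had a *trans* part of −2.44 (adjusted p = 0.009). Its highest CC037 mouse was at 221 CPM against a median of 20.9 CPM, and its strain difference of −2.15 (adjusted p = 0.036) was −1.45 (adjusted p = 0.067) and its *trans* part −1.74 (adjusted p = 0.02, edgeR's quasi-likelihood test) without CC037 female-2. The strain call of *Scd2* was lost without any of 7 inbreds.

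Sugar metabolism followed the same direction in the *trans* part. Of 17 measurable genes 11 had a *trans* call, 10 of them below 0 (12.6 and 6.47% of all members), and the median was −0.40. *Pdk1*, a kinase that restrains pyruvate oxidation, had a *trans* part of −1.17 beside an allelic ratio of −0.38, glucose-6-phosphatase *G6pc* −0.90 and 0.06, the glucose transporter *Slc2a2* −0.59 and 0.08, and ketohexokinase *Khk* −0.54 and −0.12. *Ldha*, a subunit of lactate dehydrogenase, was the called gene above 0, at 0.87. The CC019 inbreds were at 35.5 to 92.2 CPM for *Pdk1* and the CC037 inbreds at 132 to 259 CPM, without overlap. In females alone, 5 genes of fatty acid synthesis and 7 of sugar metabolism had a *trans* call in edgeR's test, and in males alone 8 and 12, against 8.44% of all members in females and 24.1% in males.

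Among 16 measurable lipoprotein genes, 8 had a *trans* call (12.6% of all members), 4 in each direction. *Pltp* (ENSMUSG00000017754), a phospholipid transfer protein of plasma, was at 12.9, 44.2 and 85.0 CPM in CC019 and at 99, 176 and 300 CPM in CC037. No CC019 inbred reached the CC037 range. Its *trans* part was −2.16 (standard error 0.36) against an allelic ratio of 0.23. *Angptl4*, a lipoprotein lipase inhibitor that rises in fasting, had 1.21 and 0.01. *Apoe* and *Lrp1*, a ligand and a receptor in the clearance of remnant particles, had *trans* parts of 0.52 and 1.10 opposite to allelic ratios of −0.55 and −1.25.

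**Figure D2:**
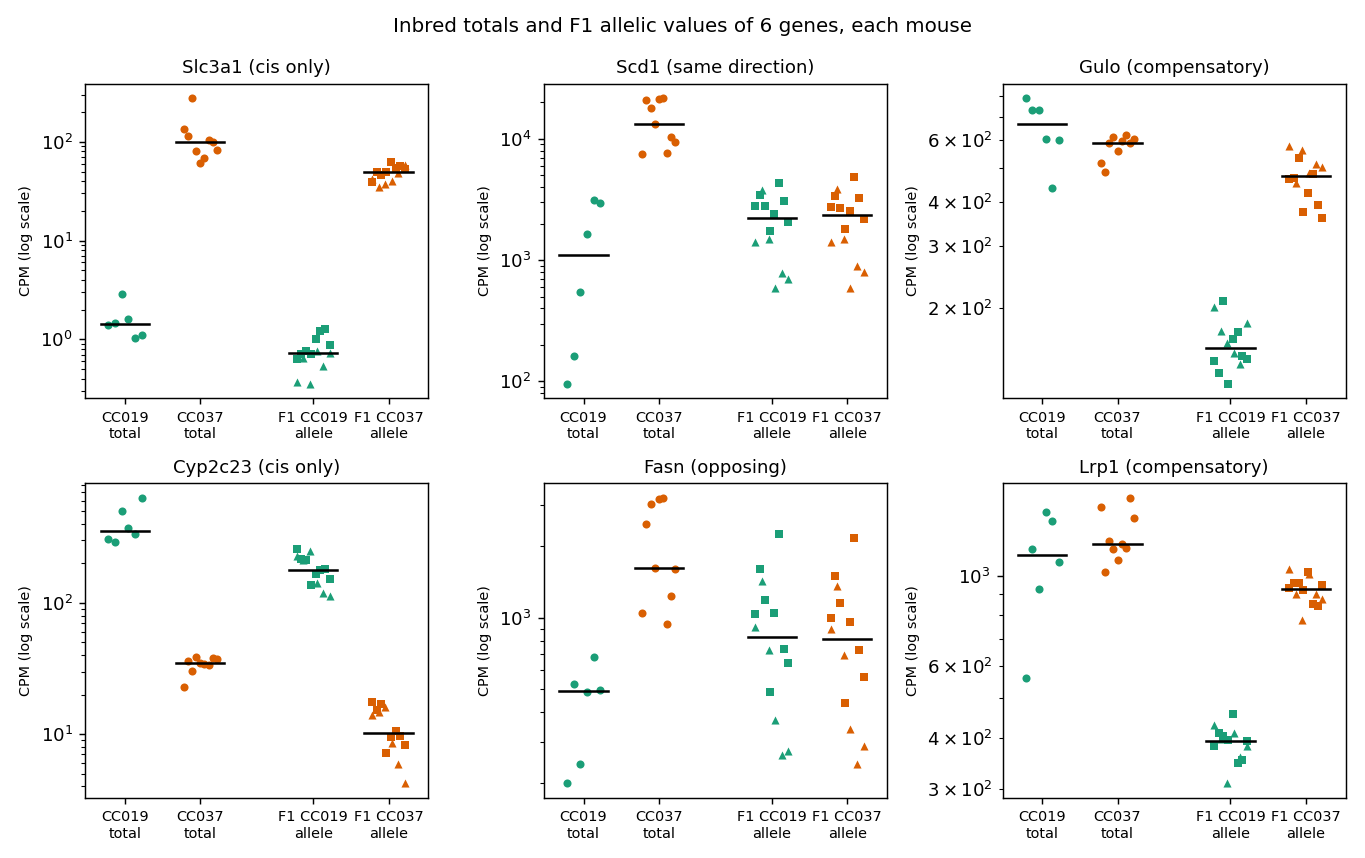
Expression in CPM per mouse, on log axes, of *Slc3a1*, *Cyp2c23*, *Scd1*, *Fasn*, *Gulo* and *Lrp1*. Total expression is shown for inbreds (circles) and each allele separately for CC019xCC037 F1s (triangles) and CC037xCC019 F1s (squares), with black bars at the group medians. *Slc3a1* and *Cyp2c23* differ between strains and alleles, *Scd1* and *Fasn* between strains with the alleles overlapping, and *Gulo* and *Lrp1* between alleles with the strains overlapping.

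*Trans* only genes were few, and some calls rested on 1 mouse. *Tmie* (ENSMUSG00000049555), a transmembrane protein of the inner ear, kept its call without any 1 mouse. It was at 8.53, 12.5 and 17.9 CPM in CC019 and at 20.5, 26.5 and 29.7 CPM in CC037, without overlap, while its alleles had medians of 12.4 and 12 CPM. Its *trans* part was −1.03 (standard error 0.12, adjusted p = 4.0e-07, edgeR's quasi-likelihood test), and it was −0.98 in females and −1.09 in males. The stress protein gene *Nupr1* had a *trans* part of 2.87, but 1 mouse, CC019 female-2, was at 38.3 CPM against a CC019 median of 1.32 CPM. Without it the *trans* part was 0.63 (adjusted p = 0.41, edgeR's quasi-likelihood test). *Acta2*, the smooth muscle actin of vessel walls and activated stellate cells, had a *trans* part of 2.27 (adjusted p = 0.039) that missed the threshold without any of 14 mice, and it was 3.11 (adjusted p = 0.0018) without CC037 female-1. The metabolic genes *Acsl5*, an acyl-CoA synthetase, and *Klf9*, a transcription factor that responds to glucocorticoids, had *trans* parts of −0.93 and 0.53. That of *Klf9* was 0.39 (adjusted p = 0.095, edgeR's quasi-likelihood test) without CC019 male-3. The strain difference of *Klf9*, at 0.46 (adjusted p = 0.049, the same test), lost its call without any of 10 inbreds.

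In the same direction class, the 2 parts added up. *Npr2* (ENSMUSG00000028469), a receptor for natriuretic peptide, was at 87.7, 103 and 135 CPM in CC019 and 3.91, 4.66 and 7.46 CPM in CC037. Its alleles in F1s, at 20.4 to 50.1 CPM and 2.73 to 8.98 CPM, were closer together but also did not overlap. The strain difference of 4.50 divided into an allelic ratio of 3.04 (standard error 0.13) and a *trans* part of 1.46 (standard error 0.24, adjusted p = 6.8e-05, edgeR's quasi-likelihood test). *Serpine2*, a protease inhibitor, had 5.12, 3.58 and 1.53, and its *trans* part was 1.11 (adjusted p = 0.11) without CC019 male-3. In females alone that part was 0.55 (adjusted p = 0.63), and with CC019xCC037 F1s alone 1.63 (adjusted p = 0.15, edgeR's quasi-likelihood test). *Fras1*, a basement membrane protein, had −3.38, −1.95 and −1.44. The neurotrophin receptor *Ntrk2* had −3.66, −1.47 and −2.19, with the last at −3.64 in females, −0.39 in males and −3.04 without CC019 male-2. *Lrpap1*, a chaperone of lipoprotein receptors, had −1.49, −0.75 and −0.74, and *Abcb4*, which exports phospholipid into bile, 0.75, 0.22 and 0.54.

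Opposing genes differed more between alleles than between strains, or in the other direction. *Sirt5* (ENSMUSG00000054021), a mitochondrial deacylase, was at 11.1, 13.3 and 15.3 CPM in CC019 and 28.6, 31.4 and 36.8 CPM in CC037, and its alleles were further apart, at medians of 2.32 and 21.8 CPM. Neither strains nor alleles overlapped. Its strain difference was −1.21, its allelic ratio −3.22 and its *trans* part 2.0 (standard error 0.24, adjusted p = 4.3e-07, edgeR's quasi-likelihood test). *Nlrp12*, an immune regulator of the inflammasome family, had −1.65, −5.03 and 3.38, with the last at 2.58 without CC019 male-3. Its strain difference did not pass in males alone, at −0.94 (adjusted p = 0.17, edgeR's quasi-likelihood test). *Pxdc1* (ENSMUSG00000021411) changed sides. Its CC019 allele had a median of 87.1 CPM against 19.9 CPM, higher in 14 of 14 F1s, while CC019 inbreds had a median of 60.2 CPM against 100 CPM in CC037. The strains overlapped in females (67.2 to 80.4 against 78.7 to 127 CPM) and not in males (46.5 to 53.1 against 67.2 to 115 CPM). The strain difference was −0.62, the allelic ratio 2.22 and the *trans* part −2.84 (standard error 0.27). *Tars2*, a mitochondrial threonyl-tRNA synthetase, also changed sides, with 0.42, −1.11 and 1.54. Of the 78 opposing genes, 52 had a strain difference and an allelic ratio of opposite sign. The ribosomal protein gene *Rpl12* had −3.54, −4.44 and 0.90, and since ribosomal protein genes have many processed copies its reads may be misplaced.

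In the compensatory class, alleles differed without a strain call. *Gulo* (ENSMUSG00000034450, chromosome 14 from 65986786 to 66009207), the last enzyme of vitamin C synthesis, was at 439, 668 and 792 CPM in CC019 inbreds and 487, 590 and 620 CPM in CC037 inbreds. In F1s its CC019 allele was at 122, 154 and 210 CPM and its CC037 allele at 360, 476 and 578 CPM. The strains overlapped, while the CC037 allele was higher in 14 of 14 F1s. The strain difference was 0.26 (standard error 0.13, adjusted p = 0.172), the allelic ratio −1.57 (standard error 0.05, adjusted p = 9.8e-14) and the *trans* part 1.83 (standard error 0.18, adjusted p = 1.5e-08, all by edgeR's quasi-likelihood test). Without CC019 female-2 the strain difference was 0.37 (adjusted p = 0.022). In males alone it was 0.51 (adjusted p = 0.0019), with CC019 at 730 to 792 CPM and CC037 at 559 to 612 CPM, so the missing strain call does not hold in males. The F1 total had a median of 630 CPM, near both strains. Whether reads of 1 allele are assigned to the other in F1s was not tested.

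*Lrp1* (ENSMUSG00000040249) was at 561, 1122 and 1432 CPM in CC019 and 1024, 1194 and 1556 CPM in CC037, with alleles at medians of 394 and 927 CPM. The strains overlapped and the alleles did not. Its strain difference was −0.15, its allelic ratio −1.25 and its *trans* part 1.10 (standard error 0.11, adjusted p = 3.6e-08, edgeR's quasi-likelihood test), with 91.1% own-allele counts in CC019. *Cyp4v3*, another fatty acid hydroxylase, had a strain difference, allelic ratio and *trans* part of −0.03, −1.54 and 1.52. *Mast2*, a kinase tied to the microtubules, had −0.03, −3.82 and 3.79, with the CC037 allele higher in 13 of 14 F1s. The plasma carrier protein gene *Orm1* had 0.50, 2.47 and −1.97, with 1 CC037 female at 1360 CPM, and without it (female-3) the strain difference was 1.06 (adjusted p = 0.0016) and the *trans* part −1.42 (adjusted p = 0.11, edgeR's quasi-likelihood test). The *trans* call of *Orm1* was lost without any of 13 mice. For 140 of the 190 compensatory genes the 95% interval of the strain difference lay inside 0.5 on either side of 0.

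A *trans* part is a difference from the allelic ratio, so an error in the allelic ratio enters it with opposite sign. The r between *cis* and *trans* part across the genes was −0.305 when both used the same F1s, and it is no result of its own. With the *cis* part from F1s of 1 cross and the *trans* part from the other, which have no mouse in common, it was −0.143 and −0.073. Between the sexes, which also share no mouse, the r was −0.185 for *cis* of females and *trans* of males. For *cis* of males and *trans* of females it was −0.109. From the covariances between females and males given above, the r was −0.289. Among the 364 genes called in both parts, 268 had opposite and 96 the same sign, counts that carry the same shared error. A *trans* part was called in 12, 9.47, 16.3 and 16.7% of genes with under 0.5, 0.5 to 1, 1 to 2 and over 2% of inbred counts on the wrong allele. With a correction for these counts, *trans* calls were 233 above and 261 below 0, and 686 of 701 *cis* only and 112 of 128 *trans* only genes kept their class. More abundant genes had more *trans* calls, at 6.44, 13.3 and 18.2% from the lowest to the highest group by level, with median standard errors of 0.28, 0.13 and 0.12.

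Strain differences varied with sex in many genes, with 3 males and 3 females in CC019. By their labels, the CC019 males and females carry mouse numbers of separate series. Sex and series cannot be told apart in this strain. A strain by sex term was called in 2359 of 13185 expressed genes (17.9%) and in 777 of the 4052 (19.2%). Among *trans* calls it was past the threshold in 132 (25.8%), among *trans* only genes in 42 (32.8%) and among *cis* only genes in 125 (17.8%). Females alone gave 923 strain (22.8%), 1576 allelic (38.9%) and 342 *trans* calls (8.44%), and males alone 1701 (42.0%), 1282 (31.6%) and 976 (24.1%). The allelic ratio of females and males had an r of 0.821 across genes, the strain difference 0.665 and the *trans* part 0.337, in mice that the sexes do not share. A larger error lowers such an r, and no allele by sex term was tested. Of the 342 *trans* calls in females, 268 (78.4%) had the same sign in males, against 58.0% of all genes, and of the 976 in males 652 (66.8%) had the same sign in females. For allelic calls the shares were 96.6 and 97.0%, against 78.9% of all genes.

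In several named genes the *trans* part was larger in males than in females, and in others, such as *Arntl* and *Ntrk2*, it was larger in females. A difference of the *trans* part between the sexes was not tested. *Cyp7b1* (ENSMUSG00000039519), an oxysterol hydroxylase with higher levels in male liver, was at 1008 to 1171 CPM in CC019 males, 45.4 to 85.6 CPM in CC019 females, 135 to 235 CPM in CC037 males and 30.3 to 64.2 CPM in CC037 females. The 3 CC019 males were above every other inbred, and the females of the strains overlapped. Its *trans* part was 3.06 in males and 0.82 in females, and the strain by sex term was −2.35 (adjusted p = 9.1e-04, edgeR's quasi-likelihood test). *Saa4*, a constitutive serum amyloid, was at 501 to 1303 CPM in CC019 males and 198 to 357 CPM in the other inbreds, with *trans* parts of 1.87 in males and 0.02 in females. The methyl-DNA binding protein gene *Mbd1* had 2.01 and −0.14 and *Herpud1*, a gene of the unfolded protein response, 1.68 and 0.10. Without CC019 male-3 the *trans* part over both sexes was 0.81 instead of 1.30 for *Saa4* and 0.87 instead of 1.33 for *Mbd1*, and the strain difference of *Herpud1* was 0.60 (adjusted p = 0.08, edgeR's quasi-likelihood test) instead of 0.86. *Klb*, a coreceptor for the hormone FGF21, had −1.65 in males and −0.10 in females, and its call over both sexes was lost without any of 3 mice. *Scd1* had −5.78 and −2.22. *Tmie*, by contrast, had −1.09 and −0.98.

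**Figure D3:**
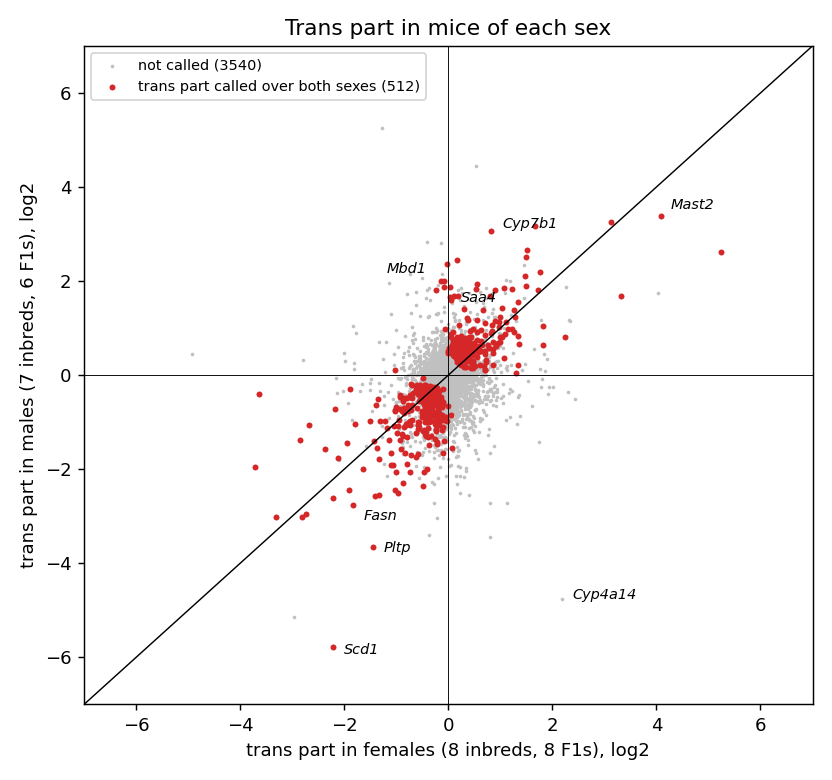
*Trans* part (log2) in females against that in males for the 4052 genes, each point 1 gene, with the 512 genes called over both sexes in red. *Fasn* and *Scd1* lie in the lower left in both sexes, while *Saa4* and *Mbd1* lie near 0 in females and above 1 in males.

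A score of clock genes was higher in most CC019 than CC037 inbreds, though the difference was not tested. It subtracts the mean log2 CPM of *Arntl*, *Npas2* and *Clock* from that of *Ciart*, *Dbp* and *Tef*. The score was between 1.75 and 3.39 in CC019 inbreds (median 3.33), between −1.68 and 2.06 in CC037 inbreds (median 1.43), between −2.14 and −1.69 in CC019xCC037 females, between 1.5 and 3.31 in CC019xCC037 males and between −3.45 and −1.44 in CC037xCC019 F1s. The 8 CC037xCC019 F1s were below every CC019 inbred, and the ranges of the inbred strains overlapped at CC019 male-3. Among 13 measurable clock genes, *Arntl* (*trans* part −0.98) and *Npas2* (−1.98) had a *trans* call (12.6% of all members). Both are in the score, so a fit with it as covariate is no check of them. The *trans* part of *Arntl* was −1.89 in females and −0.29 in males (adjusted p = 0.5 in males, edgeR's quasi-likelihood test), and its call was lost with the F1s of either cross alone. With the score as covariate of the inbreds, the *trans* calls lost included those of *Scd2* (−0.88, adjusted p = 0.64), *Orm1* (−0.61, adjusted p = 0.72), *Lrpap1* (−0.32, adjusted p = 0.45), *Acsl5* (−0.80, adjusted p = 0.12), *Ntrk2* (−2.36, adjusted p = 0.087), *Nupr1* (3.5, adjusted p = 0.056), *Rap1gap* (0.93, adjusted p = 0.22) and *Klf9* (0.53, adjusted p = 0.11, edgeR's quasi-likelihood test). Without the score, the *trans* part of *Rap1gap* was 1.05 (adjusted p = 0.048, the same test), and its call was lost without any of 22 mice. Strain calls lost with the score included *Nlrp12* (−1.09, adjusted p = 0.13) and *Pxdc1* (−0.47, adjusted p = 0.12, the same test). With the score there were 443 *trans* calls over all 4052 members, 210 above and 233 below 0. They held 8 of 14 genes of fatty acid synthesis (6 below 0) and 9 of 17 of sugar metabolism (7 below 0). Lipoproteins had 5 of 16, amino acid breakdown 3 of 25 and complement and coagulation 0 of 18. The amino acid count is close to the share of all members, and the last count is too small to tell from it. Of the 701 *cis* only genes 446 kept their class, and of the 128 *trans* only genes 65. Score and strain go together in these inbreds, and their parts cannot be told apart.

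Summed markers of other liver cells differed between the strains in some lists and not in others, and the sums were not tested. The 23 lymphocyte markers summed to 9.01, 15.9 and 77.6 CPM in CC019 and 34.1, 82.5 and 452 CPM in CC037, and *Ighm*, the immunoglobulin heavy chain, was the most abundant, at 3.40 and 64.5 CPM. The 20 markers of Kupffer cells summed to medians of 566 and 891 CPM, led by the iron exporter *Slc40a1*, and the 20 of sinusoidal endothelium to 520 and 739 CPM, led by *Eng*. The 20 stellate cell markers were at 617 and 657 CPM (most abundant *Ecm1*), the 16 of cholangiocytes at 148 and 148 CPM (*Anxa4*), the 13 of neutrophils at 7.10 and 2.32 CPM (*Csf3r*) and the 6 of 7 red cell markers found at 389 and 798 CPM (*Hba-a2*). The 19 of 22 hepatocyte markers found were at 185474 and 162031 CPM (*Alb*). The 17 of 20 markers of adjacent tissue found were at 3969 and 2210 CPM (*Car3*), with *Gast* at 0. CC019 female-2 stood apart in this list at 14462 CPM, with the other inbreds at 1155 to 5103 CPM. Over both sexes the ranges of the strains overlapped in each list. In males they did not for lymphocytes (9.01 to 12.7 against 34.1 to 96.3 CPM), Kupffer cells (271 to 345 against 619 to 891 CPM) and endothelium (359 to 390 against 718 to 862 CPM), or for red cells (196 to 389 against 994 to 2184 CPM), with CC019 lower. They also did not for hepatocytes (166922 to 195225 against 149874 to 162031 CPM) and adjacent tissue (3661 to 5103 against 2210 to 2495 CPM), with CC019 higher. In females the lymphocyte sums did not overlap (19.1 to 77.6 against 81.4 to 452 CPM, CC019 lower), and neither did the neutrophil sums (8.50 to 11.7 against 2.29 to 8.34 CPM, CC019 higher). The part of cell composition in the *trans* calls was not tested.

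Marker genes themselves differed by allele, which a sum over cells does not show. *Mpeg1* (ENSMUSG00000046805), the perforin of macrophages, was at 15.2, 37.7 and 70.6 CPM in CC019 and 144, 168 and 411 CPM in CC037, with alleles at medians of 26.7 and 64.6 CPM. Neither strains nor alleles overlapped. Its strain difference was −2.30, its allelic ratio −1.39 (standard error 0.11) and its *trans* part −0.91 (standard error 0.37, adjusted p = 0.108, edgeR's quasi-likelihood test). That part passed under 7 alternatives, among them each sex alone (adjusted p = 0.037 in females and 0.016 in males, the same test), so the missing call depends on the settings. Of 10 measurable Kupffer cell markers, 8 had an allelic call, 1 a strain call and 0 a *trans* call in edgeR's test, against 48.2, 30.9 and 12.6% of all members, and their median *trans* part was −0.47. Of 11 stellate cell markers, 5 had a *trans* call, 4 of them below 0 (12.6 and 6.47% of all members). Leaving out 1 mouse moved the 5 calls to between 3 and 6. *Ighm* had −3.62, −1.84 and −1.78, with CC019 female-2 apart at 25.7 CPM. Without it the *trans* part was −2.76 (adjusted p = 0.0091), and in males alone −1.80 (adjusted p = 0.018, edgeR's quasi-likelihood test). *Anxa4* had a *trans* part of −0.45 and *Reln*, a stellate cell glycoprotein, −0.79 opposite to an allelic ratio of 0.35.

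In 24 genes of periportal and pericentral hepatocytes, 12 could be measured by allele. The 12 had an allelic call, against 48.2% of all genes, with the CC037 allele higher in 9, and 5 had a *trans* call (12.6%). As given above, both shares rise with expression level, and no comparison of a list with all members is matched for level. In the respiratory chain, 6 of 19 genes had a *trans* call (12.6% of all members), 5 of them above 0, such as *Uqcrh* (0.65) of complex III, while *Ndufc2* (−0.31) of complex I was below 0, with strain differences of 0.41 and 0.22. Males alone gave 10 calls, all above 0, and females alone 6, 5 of them below 0 (24.1 and 8.44% of all members), with median *trans* parts of 0.23 and −0.01. The difference between the sexes was not tested for this list. Hepatocyte transcription factors had 2 *trans* calls among 23 (12.6% of all members), 1 to 5 with 1 mouse left out, 10 in males alone (5 in each direction, 24.1% of all members) and 1 in females alone (8.44%). The 2 were *Foxa3* (0.92, with 1.4 in males, 0.30 in females and 0.61 without CC019 male-3) and *Klf9*. Among 25 genes of amino acid breakdown, 22 had an allelic call and 6 a *trans* call, and among 18 genes of complement and coagulation 13 and 3, against 48.2 and 12.6% of all members. Leaving out 1 mouse moved these *trans* counts to between 3 and 7 and between 1 and 4. Acute phase and plasma protein genes had 13 allelic and 3 *trans* calls among 15 (1 to 3 with 1 mouse left out), with 10 *trans* calls in males alone (8 above 0) and 2 in females alone (both below 0), against 24.1 and 8.44% of all members. The *trans* call of *Serpina3n*, a protease inhibitor of the acute phase, rested on CC019 male-3 at 2208 CPM, since its *trans* part of 1.01 was 0.29 (adjusted p = 0.32, edgeR's quasi-likelihood test) without that mouse.

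The allelic ratio differed between the crosses in 6 of the 4052 genes (0.148%), and the cause was not tested. *Sgce* (ENSMUSG00000004631, chromosome 6 from 4674350 to 4747207), an imprinted gene expressed from the father's copy, had 0 counts on the CC019 allele in 6 CC019xCC037 F1s, which allows up to 0.0156 CPM, and a median of 3 CPM on the CC037 allele. In 8 CC037xCC019 F1s the CC019 allele had a median of 2.47 CPM and the CC037 allele 6 counts in all. The father's allele was thus higher in both crosses, and an allelic ratio over both is no *cis* part. *Orm1* had an allelic ratio of 3.23 in CC019xCC037 and 1.96 in CC037xCC019 F1s, and the GTPase regulator *Rap1gap* 0.11 and 1.80 (adjusted p of the difference between crosses 0.005 for *Orm1* and 0.013 for *Rap1gap*, edgeR's quasi-likelihood test). Of 7 imprinted genes that could be measured, *Sgce* was the one past this test.

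Chromosomes contributed unequally. Chromosome 16 held 37 of the genes, 8.58% of its expressed genes, and chromosome 18 held 45.7%. The share of genes with a *trans* call ran from 2.70% on chromosome 16 to 17.0% on chromosome 19, against 12.6% of all members. Chromosome 16 held the fewest of the genes, so its share rests on few of them. A difference between chromosomes was not tested. Neighbouring genes were only loosely alike. Over 2398 pairs within 100 kb, the r of neighbours across pairs was 0.137 for the strain difference, 0.066 for the allelic ratio and 0.090 for the *trans* part.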

How the data were processed

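Liver RNA-seq was analysed from 15 inbred and 14 F1 mice. The authors quantified reads with Salmon 1.9.0 against a diploid transcriptome of both strains, and the deposited values are expected counts per gene and allele. They were rounded to whole numbers, and allele counts were summed for totals. CPM is per total over both alleles. Strain, allelic (mouse as block) and joint *trans* tests used edgeR 4.0.16 (quasi-likelihood, TMM) in R 4.3.3, with Benjamini-Hochberg adjustment over 13185 expressed genes for strain and 4052 genes otherwise. The joint fit took trended dispersions estimated separately for inbreds and F1 alleles, but fitted a shared quasi-dispersion per gene over both. The smaller spread between alleles of a mouse can thus lower the standard error of the *trans* part. Positions are GRCm38.

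The members and the 30 gene lists were chosen with earlier results of these data known. Named genes have a mean of at least 5 CPM and a symbol other than a Gm or Rik model. They are the 4 highest and 4 lowest by allelic ratio (*cis* only) or *trans* part (*trans* only), the 5 with the largest smaller part in each remaining class, up to 3 per list by largest value, and imprinted genes past the cross test. Genes outside this rule were named as list members with calls, as clock score members or as threshold neighbours. Alternatives included DESeq2 1.42.0, limma 3.58.1, other filters, covariates and leaving out each mouse. A CC019xCC037 female was left out by the rule for members and entered an alternative with 30 mice, and the paper sets aside 1 such female for a single X chromosome and 1 for its expression, without a label that says which this is. Repeat libraries of inbreds were not analysed. Some named genes are not reported here.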

Additional observations from a re-analysis of the deposited data

Results flagged for a closer look

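Some mice stood apart from their group in a named gene, by the gap to the nearest mouse relative to the group's range in log2 CPM. Over 348 group values of 87 genes this held for 16, and chance flags about 1 in 20 groups. CC037 female-3 was apart in 5 of them, at 4.07 CPM for *Cyp4a14*, 1360 CPM for *Orm1*, 46.0 CPM for *Klb*, 411 CPM for *Mpeg1* and 54.0 CPM for *Ehd3*. CC037 female-1 was apart in 4, at 22.7 CPM for *Cyp2c23*, 29 CPM for *Acta2*, 7.46 CPM for *Npr2* and 38.6 CPM for *Ndufc2*. CC037 female-2 was lowest for *Sdsl* (4.87 CPM) and highest for *Lrpap1* (296 CPM), and CC037 male-1 highest for *Rap1gap* (6.63 CPM). In CC019, male-3 was highest for *Serpina3n* (2208 CPM) and female-2 for *Ighm* (25.7 CPM). Among F1s, CC037xCC019 female-1 was lowest for *Mast2* (0.5 CPM) and CC019xCC037 female-1 for *Sdsl* (8.35 CPM).

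The strain difference of several named genes differed between the sexes in edgeR's interaction test. The values below are the log2 strain difference in females minus that in males. It was above 0 for *Scd1* (3.43), *Cyp4a14* (3.13), *Pltp* (1.85), *Cdh1* (1.52), *Klb* (1.36), *Fcgr2b* (0.92) and *Pdk1* (0.74). It was below 0 for *Cyp7b1* (−2.35), *Mbd1* (−2.05), *Saa4* (−1.99), *Serpina3n* (−1.73), *Herpud1* (−1.63), *Arntl* (−1.50), *Sh3bp2* (−1.14), *Foxa3* (−1.14), *Agxt* (−1.08), *Haao* (−0.70), *Npr2* (−0.66), *Hpd* (−0.60), *Gulo* (−0.59), *H2-Ke6* (−0.58), *Tars2* (−0.52) and *Rplp1* (−0.51).

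The allelic ratio differed between the crosses, as CC019xCC037 minus CC037xCC019, for *Sgce* (−17.12, a fitted value that rests on counts at or near 0), *Rap1gap* (−1.68), *Orm1* (1.27), *Cobl* (0.82), *Tuba4a* (0.44) and *Ebpl* (0.22). No cause of these differences was tested.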

How the results depend on the processing

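Of the strain, allelic and *trans* values of named genes under each alternative, 8554 kept their call or lack of it, 397 were weaker, 90 stronger and 10 reversed. A change of sign in a value that passed in neither setting is counted among the 8554. The reversals were *Cyp4a14* *trans* −4.75, *Slc3a1* *trans* 0.97 and *Scd1* allelic 0.01 in males alone, *Mbd1* *trans* −0.14, *Serpina3n* *trans* −0.09 and *Herpud1* strain −0.10 in females alone, *Scd1* allelic 0.17 after wrong-allele correction, and for *Sgce* an allelic ratio of −10.20 and a *trans* part of 10.48 with CC019xCC037 F1s alone and 1.96 with crosses weighted equally. An own-allele share of 99% left 1680 genes, with 555 strain, 971 allelic and 186 *trans* calls, 354 *cis* only, 42 *trans* only, 47 same direction, 25 opposing and 66 compensatory genes and 3 calls by cross. A share of 80% gave 310 compensatory genes and 10 calls by cross. Males alone gave 1282 allelic, 976 *trans* and 471 *trans* only calls and a strain to allelic r of 0.581, and females alone 85 *trans* only, 60 same direction and 30 opposing. CC019xCC037 F1s alone gave 1128 allelic calls, 33 same direction, 46 opposing and 118 compensatory genes, and r of 0.643 (strain to allelic) and −0.425 (*cis* to *trans*), and CC037xCC019 F1s alone 63 same direction and −0.392. DESeq2 gave 202 *trans* only genes and a *cis* to *trans* r of −0.401, limma voom −0.241, and *cis* and *trans* from separate crosses −0.143 and −0.073. The main strain and *trans* fits held no term for sex. Sex as covariate gave 4076 strain calls over expressed genes, *trans* calls of 347 above and 405 below 0, 216 *trans* only and 119 opposing genes. The clock score as covariate gave 50 opposing genes, 1422 strain by sex calls, and r of 0.651 and −0.246. An adjusted p of at most 0.01 left 44 *trans* only, 44 same direction, 23 opposing and 102 compensatory genes, and an absolute log2 of at least 0.32 left 45, 39 and 116 of the last 3. Leaving out each mouse gave 77 to 161 *trans* only genes (77 without CC019 male-1), 1367 to 3053 strain by sex calls and 2 to 6 calls by cross. The cause of these shifts was not tested. Replicate numbers did not pair the inbreds (6 pairs, r of −0.227 to 0.18, 2 best matched to their own number). With the number as a replicate block, strain calls over expressed genes were 2583 and *trans* calls 631.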
